A study of Homo sapiens with 9 samples.

Results

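The let-7 family was described here through 9 of the 1485 hairpin rows of a small-RNA count table: hsa-let-7a-1, hsa-let-7b, hsa-let-7c, hsa-let-7d, hsa-let-7e, hsa-let-7f-1, hsa-let-7g, hsa-let-7i and hsa-mir-98, written below without the species prefix. They were taken by name, with 1 row for each mature let-7, so that let-7a-1 stands for let-7a-2 and let-7a-3, and let-7f-1 for let-7f-2. The table covers 9 libraries from 2 cell lines. HEK293E, a derivative of a human embryonic kidney line, received siRNAs by lipid transfection on day 0 and again on day 3 and was harvested on day 5. Its control arm held siGFP (2 libraries) and siControl (2 libraries), and its ERH arm held siERH-3 (2 libraries) and siERH-5 (1 library, replicate 2). K562, a human leukaemia line with erythroid features, was electroporated with siGFP (1 library) or siERH-5 (1 library) and harvested after 4 days. Every library came from transfected cells, and no untransfected cells were among them. The labels do not say whether replicates were separate cultures, so p-values measure the spread between these libraries. ERH mRNA is not read in small-RNA libraries, so the extent of the knockdown was not measured here.

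let-7 miRNAs are post-transcriptional repressors that accumulate as cells differentiate, and they target mRNAs of growth regulators such as HMGA2, LIN28 and RAS genes. Each is cut from a primary transcript by the Microprocessor, the complex of DROSHA and DGCR8, and the resulting precursor is cut again by DICER. ERH, enhancer of rudimentary homolog, is a small nuclear protein that binds DGCR8 and is known for helping the Microprocessor cut poor hairpins that lie beside good ones. Several members sit near other hairpins, which is why their neighbours are given beside them. Whether any of them is a poor hairpin beside a good one was not tested.

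The mature 5p sequences are shown because they define the family and show how little separates its members. All 9 are 22 nt long and share bases 2 to 8, the seed that pairs with target mRNAs, which is printed in capitals. The sequences are from RefSeq (GRCh38.p14), where all 9 members matched.
let-7a-5p: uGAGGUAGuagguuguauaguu
let-7b-5p: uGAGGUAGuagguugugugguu
let-7c-5p: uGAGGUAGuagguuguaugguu
let-7d-5p: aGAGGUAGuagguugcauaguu
let-7e-5p: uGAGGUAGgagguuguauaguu
let-7f-5p: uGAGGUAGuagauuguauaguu
let-7g-5p: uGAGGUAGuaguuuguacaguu
let-7i-5p: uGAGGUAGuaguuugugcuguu
miR-98-5p: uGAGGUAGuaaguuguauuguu

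With positions counted from 1 at the 5′ end and let-7a-5p as the reference, let-7c differs by A19G alone, let-7e by U9G alone and let-7f by G12A alone. let-7i lies farthest from let-7a, with 4 differences (G12U, A17G, U18C and A19U), and miR-98 has 2 (G11A and A19U). None of the differences among the 36 pairs falls in the seed. let-7a differs by 1 base from let-7c, let-7e and let-7f, and let-7b by 1 base from let-7c. Among these, a read with 1 sequencing error could match another member. let-7d, let-7g, let-7i and miR-98 differ from every other member by at least 2 bases. The extent of wrong assignment was not tested. The only other hairpin in the table with this seed in a RefSeq mature sequence was mir-4458, which had at most 2 counts in any library.

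The copies of let-7a and let-7f have the same mature 5p sequence, and their rows were nearly equal. let-7a-3 held 1.001 to 1.009 times the count of let-7a-1 across the 9 libraries. let-7a-2, which has a different 3p arm, held 0.916 to 0.962 times that count, and let-7f-2 held 1.04 to 1.07 times the count of let-7f-1. Reads of such copies cannot be assigned to 1 locus, so a value for let-7a-1 or let-7f-1 is a value for the shared mature miRNA.

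The members occupy 7 regions of the genome (GENCODE release 29, GRCh38). let-7a-1 (chr9:94175957-94176036), let-7f-1 (chr9:94176347-94176433) and let-7d (chr9:94178834-94178920) lie on the plus strand in an intron of the lincRNA AL158152.2, with 310 bases between let-7a-1 and let-7f-1 and 2400 between let-7f-1 and let-7d. let-7b (chr22:46113686-46113768, plus strand) lies in an exon of the lincRNA MIRLET7BHG, 863 bases from let-7a-3. let-7c (chr21:16539828-16539911, plus strand) lies in an intron of the lincRNA MIR99AHG, 658 bases from mir-99a, and mir-125b-2 lies in the same host. let-7e (chr19:51692786-51692864, plus strand) lies in an intron of the protein-coding gene SPACA6, 104 bases from mir-99b and 389 from mir-125a. mir-98 (chrX:53556223-53556341, minus strand) lies in an intron of HUWE1, a ubiquitin ligase gene, 850 bases from let-7f-2. let-7g (chr3:52268278-52268361, minus strand, in an intron of WDR82) and let-7i (chr12:62603686-62603769, plus strand, in an intron of the lincRNA AC048341.1) have no annotated miRNA hairpin within 10 kb on their strand. The other strand was not searched.

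The libraries held 2609929 to 3320017 hairpin counts. Unless another scale is named, levels are CPM, counts per 1e+06 of library sizes scaled by TMM, edgeR's trimmed mean of log ratios, within each cell line. The known character of the lines was visible in the miRNAs: the 5 erythroid and haematopoietic markers summed to 130030 CPM of the unscaled library total in K562 siGFP against 1126 to 1637 in the 7 HEK293E libraries, and the 5 HOX-cluster miRNAs to 3727 against 27442 to 40195. Neither line was rich in the 5 epithelial markers (428 to 679 in HEK293E and 228 in K562 siGFP). In these bulk libraries a change in the share of cells that hold a miRNA and a change in its amount per cell cannot be told apart.

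In HEK293E controls let-7a-1 was the highest member and mir-98 the lowest, 25.6-fold apart in their means. let-7a-1 stood at 2624 ± 505 CPM (SD, n = 4), rank 105 among the 773 hairpins tested. let-7g at 1494 ± 296, let-7f-1 at 1369 ± 313 and let-7c at 977 ± 211 followed, and their ranges overlapped from each to the next and from let-7c to let-7i, although let-7g exceeded let-7f-1 and let-7f-1 exceeded let-7c within each of the 4 libraries. let-7i at 642 ± 124 and let-7e at 480 ± 159 overlapped, as did let-7d at 240 ± 22.2 and let-7b at 207 ± 55.9. let-7e was above let-7d in all 4 libraries with no overlap. mir-98 was last, at 102 ± 8.89 CPM, rank 290. These are levels of whole hairpins, and ligation efficiency can differ between sequences, so the order is of read counts.

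**Figure D1:**
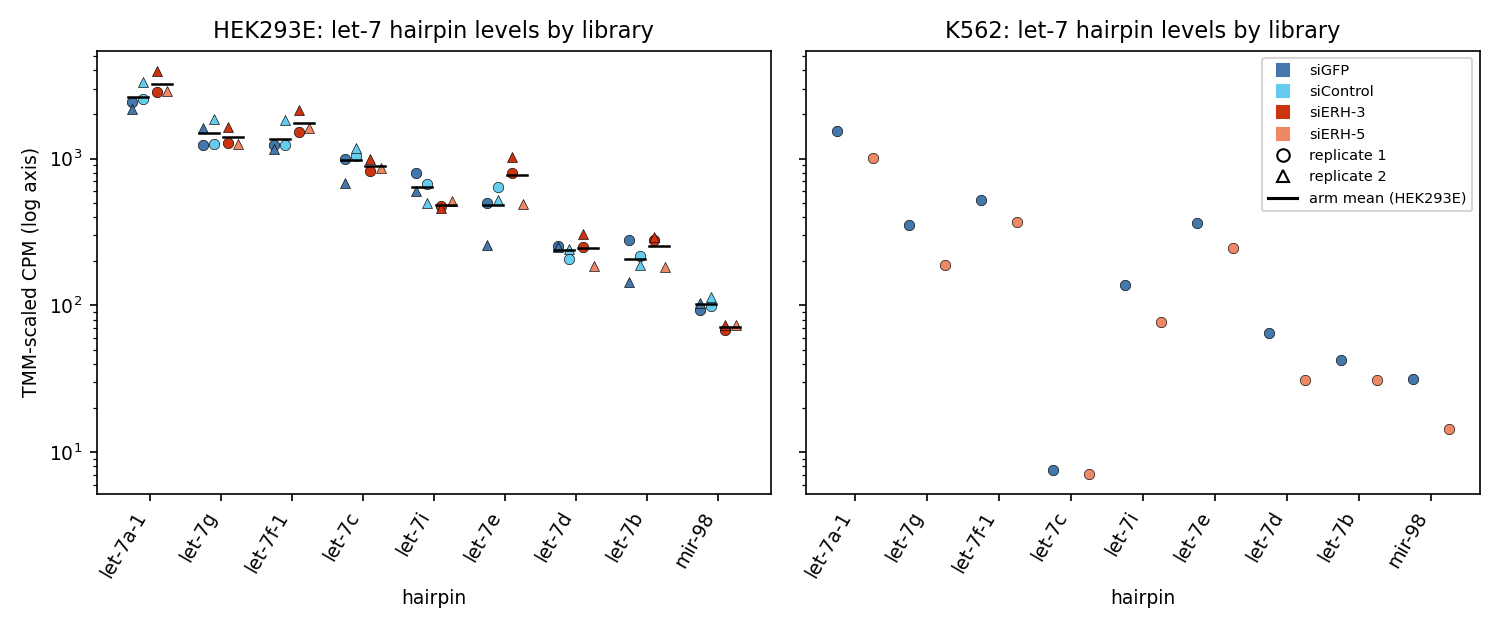
Level of each of the 9 hairpins in every library as TMM-scaled CPM on a log axis, in HEK293E (left) and K562 (right), with hairpins ordered by the HEK293E control mean and libraries scaled within each cell line. Colours mark the siRNA, circles replicate 1, triangles replicate 2 and bars the mean of each HEK293E arm; the 3 siERH points of mir-98 lie at 67.5 to 73.8 CPM, below all 4 controls, and let-7c lies at 7.60 and 7.10 CPM in K562.

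After siERH in HEK293E, mir-98 was the 1 member of 9 called, and it was lower. The call is by edgeR's quasi-likelihood test without a replicate block, at a Benjamini-Hochberg adjusted p under 0.05. Across all 773 hairpins tested 125 were called lower (16.2%) and 184 higher (23.8%), so the members' share of lower calls was not above that of the table. The median log2 difference of the members was 0.05, with a range of -0.52 to 0.68, beside -0.01 over all hairpins. All 9 members passed the filter on low counts. The siERH groups lay wholly below the controls for 1 member of 9, against 19.1% of all hairpins. With a replicate block, which takes in the pairing of same-numbered libraries, let-7e was called higher and mir-98 lower. That fit called 159 of 773 hairpins lower and 217 (28.1%) higher.

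mir-98 is the X-linked member, whose seed is that of let-7. It stood at 92.5 and 105 CPM in siGFP replicates 1 and 2 and at 99.3 and 114 in siControl replicates 1 and 2. It was at 67.5 and 73.8 CPM in siERH-3 replicates 1 and 2 and at 73.5 in siERH-5. Every siERH library was below every control library. The log2 difference was -0.52 ± 0.18 (SE, edgeR's quasi-likelihood test, adjusted p = 0.0388), a level 1.43-fold lower. Within replicate 1, siERH-3 differed from the mean of the controls by -0.51 on the log2 scale, and within replicate 2 siERH-3 differed by -0.56 and siERH-5 by -0.57.

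The call of mir-98 was near its threshold. In the fit blocked on replicate it was -0.54 (adjusted p = 0.0182). It was lost when any 1 library other than siGFP replicate 1 was left out, with adjusted p from 0.0534 (without siControl replicate 2) to 0.169 (without siERH-3 replicate 1) and log2 differences of -0.53 to -0.45. With scaling on library totals, which places the median of all hairpins 0.20 higher on the log2 scale, mir-98 was at -0.32 (adjusted p = 0.186).

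let-7e had the largest difference of the 9 members, and let-7i the largest after let-7e and mir-98, in opposite directions. Neither was called in the fit without a replicate block. let-7e, which shares its transcript with mir-99b and mir-125a, stood at 501 and 258 CPM in siGFP replicates 1 and 2 and at 637 and 524 in siControl. It was at 796 and 1022 CPM in siERH-3 and at 490 in siERH-5. Both siERH-3 libraries were above all controls, while the siERH-5 library lay among them. The log2 difference was 0.68 ± 0.31 (SE, adjusted p = 0.105 by edgeR's quasi-likelihood test). With the replicate block it was 0.77 ± 0.27 (adjusted p = 0.0322), a fit in which 28.1% of all hairpins were called higher. The difference was 1.00 when siGFP was the sole control siRNA and 0.38 when siControl was.

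let-7i, which has no annotated hairpin within 10 kb on its strand, stood at 796 and 598 CPM in siGFP replicates 1 and 2. It was at 672 and 502 CPM in siControl. In siERH-3 let-7i was at 478 and 461 CPM, and in siERH-5 at 516. The siERH-5 library and siControl replicate 2 overlapped, and the other comparisons between arms placed siERH lower. The log2 difference of -0.40 ± 0.19 (SE) did not pass edgeR's quasi-likelihood test (adjusted p = 0.111), and DESeq2, which called 19.8% of all hairpins lower, called it at -0.47 (adjusted p = 0.043).

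let-7a-1 and let-7f-1, neighbours on chromosome 9 and carriers of 2 of the most abundant family members, were both above 0 without a call. let-7a-1 stood at 2442 and 2170 CPM in siGFP replicates 1 and 2, at 2541 and 3343 in siControl, at 2823 and 3959 in siERH-3 and at 2906 in siERH-5. let-7f-1 stood at 1236 and 1159 CPM in siGFP, at 1245 and 1835 in siControl, at 1528 and 2137 in siERH-3 and at 1612 in siERH-5. For both, siControl replicate 2 was the highest control and the only one that reached into the siERH range. The log2 differences were 0.30 ± 0.19 for let-7a-1 (adjusted p = 0.241) and 0.36 ± 0.20 for let-7f-1 (adjusted p = 0.182) by edgeR's quasi-likelihood test. Without siControl replicate 2, let-7f-1 was called at 0.53 (adjusted p = 0.035) and let-7i at -0.51 (adjusted p = 0.0377), while mir-98 was not. On library totals, where 27.4% of all hairpins were called higher, let-7a-1 was at 0.49 (adjusted p = 0.0487) and let-7f-1 at 0.56 (adjusted p = 0.0359).

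let-7c and let-7g lay close to 0. let-7c, the chromosome 21 member, stood at 997 and 686 CPM in siGFP replicates 1 and 2, at 1039 and 1188 in siControl, at 823 and 988 in siERH-3 and at 869 in siERH-5. let-7g, from WDR82, stood at 1241 and 1628 CPM in siGFP, at 1261 and 1848 in siControl, at 1285 and 1642 in siERH-3 and at 1267 in siERH-5. In both cases the siERH values lay inside the control range. Their log2 differences were -0.13 ± 0.20 and -0.10 ± 0.19 (SE, adjusted p = 0.634 and 0.708 by edgeR's quasi-likelihood test), and both turned to above 0 on library totals.

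let-7b and let-7d, the 2 members of lowest level besides mir-98, varied as much within arms as between them. let-7b ranged from 145 to 278 CPM in controls and from 182 to 294 in siERH libraries (log2 difference 0.28 ± 0.25 SE, adjusted p = 0.401 by edgeR's quasi-likelihood test). let-7d ranged from 207 to 256 CPM in controls and from 184 to 306 in siERH libraries (0.05 ± 0.20, adjusted p = 0.867). let-7d was above the controls of its replicate in both siERH-3 libraries (0.12 and 0.31) and below them in siERH-5 (-0.43).

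The comparison of siControl with siGFP, which uses the same control libraries, shows how far these hairpins moved between control siRNAs. Without a replicate block, edgeR's quasi-likelihood test called 0 of 730 hairpins (0%), with 24 at an unadjusted p under 0.05 and 4 calls by DESeq2. let-7e differed by 0.60 ± 0.38 (SE), nearly the size of its siERH difference, and let-7a-1 by 0.35, let-7f-1 by 0.36 and let-7c by 0.39. mir-98 differed by 0.11 ± 0.28. With the replicate block 9.86% of all hairpins were called higher, and 4 members were higher in siControl than in siGFP: let-7a-1 (0.33, adjusted p = 0.0215), let-7c (0.41, adjusted p = 0.00638), let-7e (0.67, adjusted p = 1.39e-05) and let-7f-1 (0.33, adjusted p = 0.0315). The blocked fit of these 4 libraries leaves little from which to measure spread, so its p-values lean on the spread shared across hairpins. Without the block, edgeR's quasi-likelihood test gave each of the 4 members an adjusted p of 0.959.

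**Figure D2:**
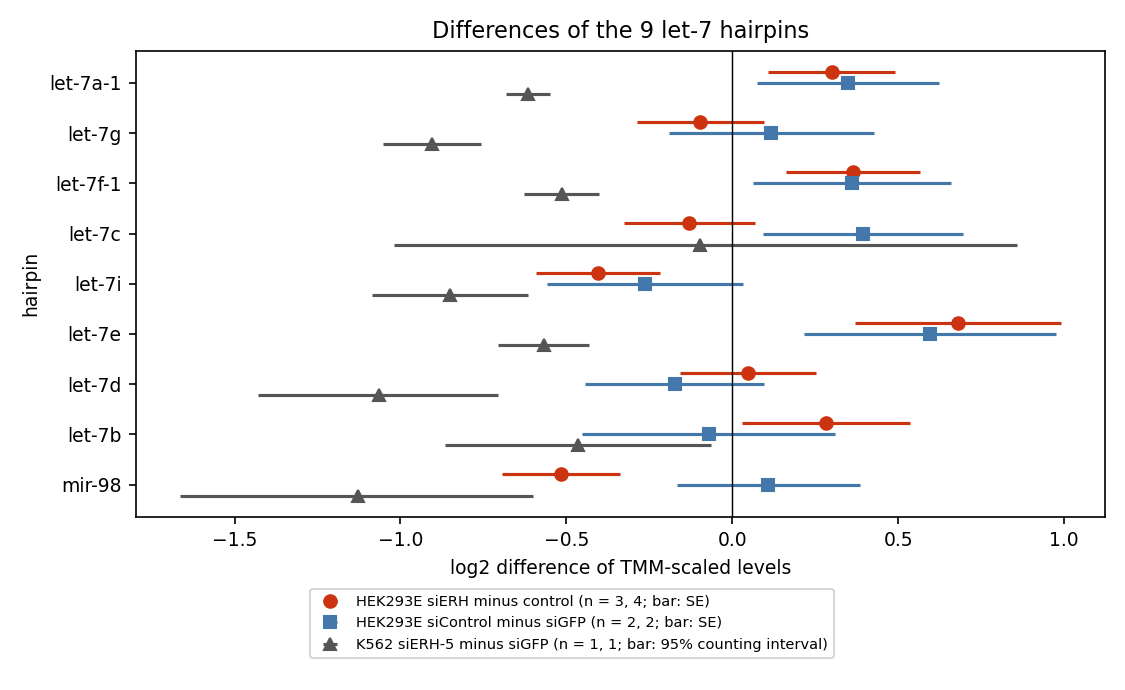
Log2 differences of the 9 hairpins on TMM-scaled levels for siERH minus control in HEK293E (circles, SE, 3 against 4 libraries), siControl minus siGFP in HEK293E (squares, SE, 2 against 2) and siERH-5 minus siGFP in K562 (triangles, 95% counting interval, 1 against 1). The HEK293E siERH points run from -0.52 for mir-98 to 0.68 for let-7e, and all 9 K562 points are below 0.

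As a share of all hairpin counts the family was small, and it was not lower after siERH in HEK293E. The 9 members made up 0.845% and 0.636% of the counts in siGFP replicates 1 and 2 and 0.752% and 0.840% in siControl. They made up 0.910% and 1.15% in siERH-3 and 0.879% in siERH-5. All 3 siERH libraries were above all 4 controls (0.980% ± 0.148, SD, n = 3, against 0.768% ± 0.0977, n = 4). On TMM-scaled levels the sums overlapped, at 8100 to 10885 CPM after siERH and 7001 to 9787 CPM in controls, so the separation of the shares depends on the scaling. The 9 rows hold 1 copy per mature let-7, while the total of hairpin counts holds every copy row. With let-7a-2, let-7a-3 and let-7f-2 added, the shares were 1.13 to 1.56% in controls and 1.68 to 2.20% after siERH. No test was made of a sum over members.

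Within the family, the mix of members is free of library scaling. let-7a-1 took 32.1% ± 1.46 of the members' counts in controls (SD, n = 4) and 35.4% ± 1.32 after siERH (n = 3), with overlap. mir-98 took 1.16% to 1.49% in controls and 0.678% to 0.908% after siERH, and let-7g took 15.8% to 23.3% and 15.1% to 15.6%. These were the 2 members whose shares did not overlap between the arms, and both shares were lower after siERH. For let-7g the gap was only from 15.8% to 15.6%, and its TMM-scaled levels overlapped between the arms (log2 difference -0.10). How often shares separate among other sets of hairpins was not computed. The shares add to a fixed total, so they are not independent of each other.

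**Figure D3:**
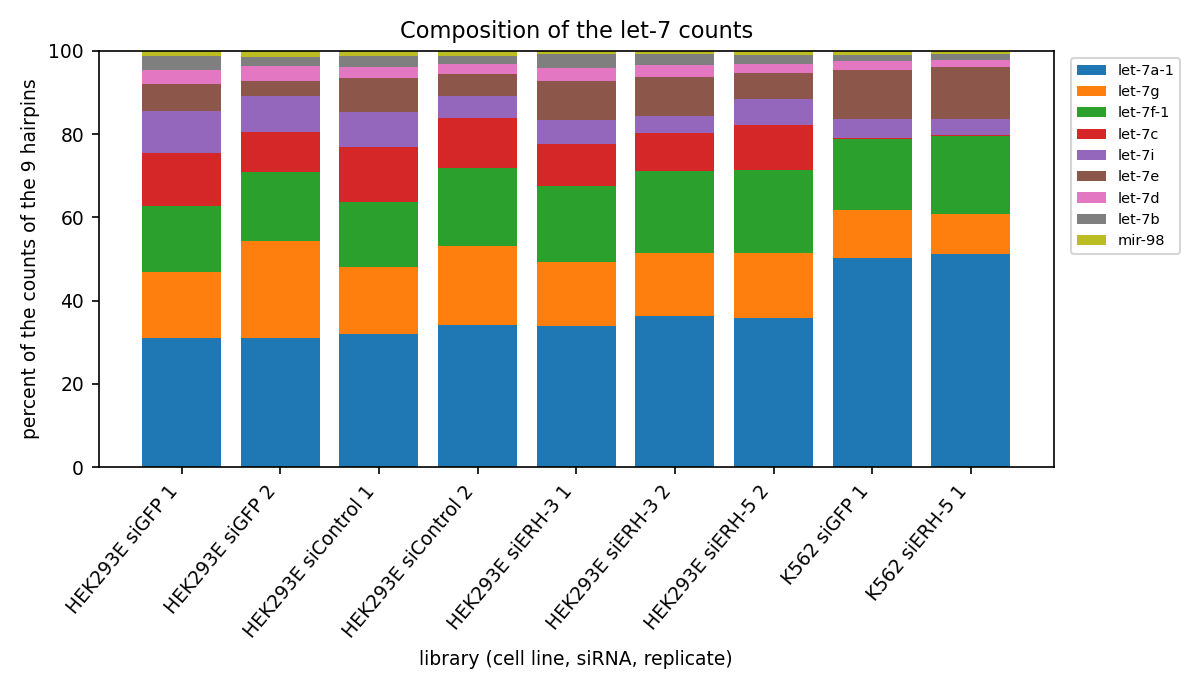
Stacked bars of each hairpin as a percent of the counts of the 9 hairpins in each library, 7 of HEK293E and 2 of K562. let-7a-1 takes about 32.1% in HEK293E controls and 50.3% in K562 siGFP, and let-7c narrows from 11.9% to 0.247%.

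The hairpins that share a host transcript with a member or a copy of one are known miRNAs of their own: mir-99a, mir-99b and mir-100 share a family that targets mTOR, and mir-125a and the mir-125b copies share another. Of 7 such hairpins 6 were tested, 3 were lower after siERH and 0 were higher by edgeR's quasi-likelihood test, beside 16.2% lower over all hairpins. The 2 mir-125b copies share reads and count as 1 observation, and neither lies within 10 kb of a member. mir-99a, beside let-7c, fell from 5192 ± 403 CPM (SD, n = 4) to 3112 ± 672 (n = 3), a log2 difference of -0.74 ± 0.17 (SE, adjusted p = 0.00767). mir-125b-2, in the same host gene as let-7c, fell by 0.57 ± 0.16 on the log2 scale (adjusted p = 0.0183), and its copy mir-125b-1 on chromosome 11 was at -0.58 (adjusted p = 0.018). The call of mir-99a held under all 21 alternatives and that of mir-125b-2 under 12 of 21, library totals not among them. Of these 21, siERH-3 alone and the fit without siERH-5 are the same fit. mir-99b and mir-125a, beside let-7e, were at -0.24 and 0.12 (adjusted p = 0.221 and 0.701), and mir-100 at -0.06 (adjusted p = 0.866). mir-4763, 28 bases from let-7b, did not reach the mean of 10 counts that the test required.

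Ratios of 2 hairpins within a library are free of library scaling, and the 9 pairs were chosen as hairpins of 1 host transcript. The rows of let-7a-1, let-7a-3, let-7f-1, let-7f-2 and mir-125b-2 also carry reads of copies elsewhere, so a ratio that uses them does not isolate 1 transcript. Of 9 pairs, 2 had ratios that did not overlap between the arms. The share of other hairpin pairs that separate in this way was not computed, so 2 of 9 is not a result about these transcripts. By two-sided exact permutation of the libraries (35 splits), 0 of 9 passed after Benjamini-Hochberg adjustment. The smallest p that 4 against 3 libraries allow is 0.0286. With 2 ratios at that p, adjustment over 9 ratios could not bring them under 0.05, so the adjusted outcome decides nothing about them.

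Relative to its neighbour let-7f-2, mir-98 was lower in every siERH library than in any control. The log2 ratio of mir-98 to let-7f-2 was -3.84 and -3.57 in siGFP replicates 1 and 2 and -3.74 and -4.07 in siControl. It was -4.58 and -4.91 in siERH-3 and -4.51 in siERH-5. The means differed by -0.86 (exact permutation p = 0.0286, adjusted 0.129), which is 1.82-fold. The difference was -0.79 within replicate 1 and -0.89 within replicate 2.

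let-7e was higher relative to mir-99b in every siERH library than in any control. The log2 ratio of let-7e to mir-99b was -3.24 and -3.94 in siGFP replicates 1 and 2, -3.03 and -3.06 in siControl, -2.36 and -1.89 in siERH-3 and -2.92 in siERH-5. Every siERH value was above every control value, the siERH-5 value by the least. The means differed by 0.93 (exact permutation p = 0.0286, adjusted 0.129), which is 1.90-fold. siControl and siGFP themselves differed by 0.55 in this ratio.

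The other 3 ratios to a mir-99 or mir-125 hairpin were also above 0 but overlapped between arms: let-7c to mir-99a differed by 0.65, let-7e to mir-125a by 0.55 and let-7c to mir-125b-2 by 0.47 (exact permutation p = 0.0857 and adjusted 0.154 for each). let-7c itself was at -0.13, with mir-99a at -0.74 and mir-125b-2 at -0.57. In the chromosome 9 cluster let-7f-1 to let-7a-1 differed by 0.07, let-7d to let-7a-1 by -0.28 and let-7d to let-7f-1 by -0.35 (exact permutation p from 0.20 to 0.257, adjusted 0.289). let-7b to let-7a-3 differed by -0.01 (exact permutation p = 1).

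**Figure D4:**
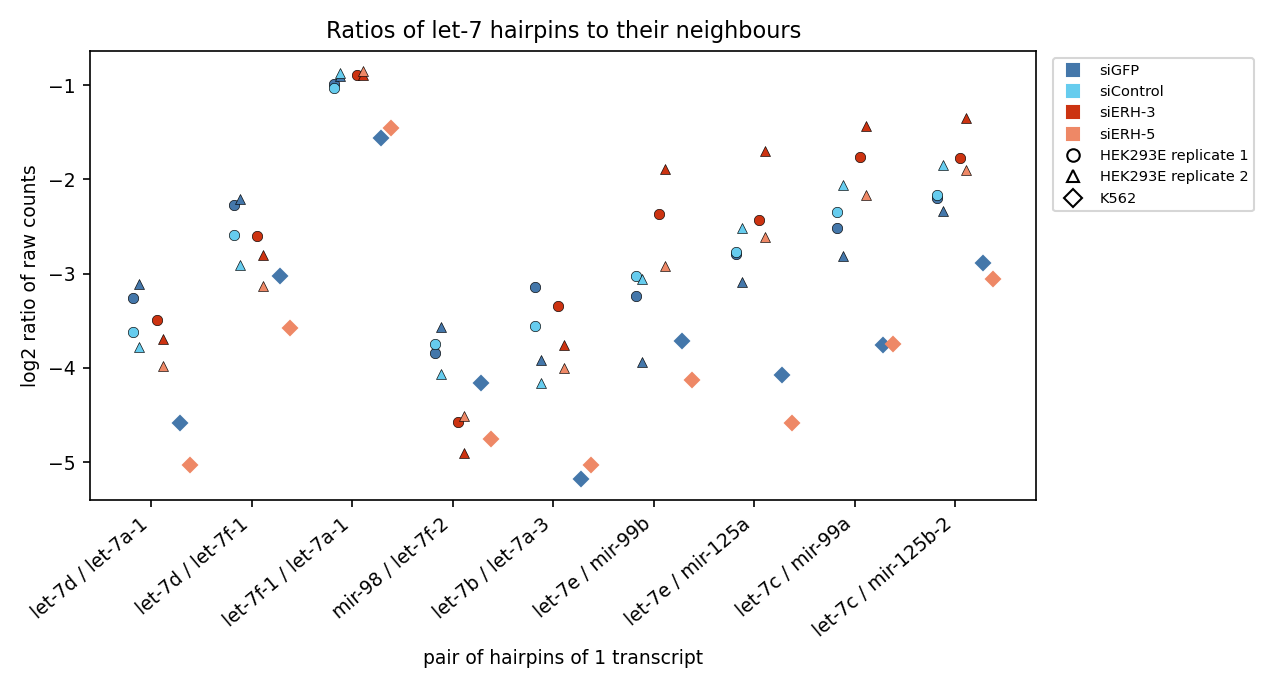
Log2 ratio of raw counts for 9 pairs of hairpins that share a host transcript, 1 point per library, with HEK293E controls at the left of each pair, HEK293E siERH libraries in the middle and K562 (diamonds) at the right. The HEK293E arms separate for mir-98 to let-7f-2 and for let-7e to mir-99b, and the other 7 pairs overlap.

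K562 held less of the family. The members made up 0.279% of the hairpin counts after siGFP (95% Wilson interval 0.273 to 0.285%) and 0.218% after siERH-5 (0.213 to 0.223%). With the let-7a and let-7f copies added, the shares were 0.599% and 0.476%. let-7a-1 led with 1549 CPM in the siGFP library, followed by let-7f-1 at 526, let-7e at 365, let-7g at 353, let-7i at 138, let-7d at 64.6, let-7b at 42.6, mir-98 at 31.6 and let-7c at 7.60. Each arm is 1 library, so none of the K562 differences has a replicate check, and intervals cover counting error only.

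After siERH-5 in K562 all 9 members were lower on TMM-scaled levels. The median log2 ratio of CPM + 1 was -0.62, with a range of -1.08 to -0.09, beside 0.11 over the 646 hairpins that averaged 10 counts or more. The share of those hairpins that were lower is not given here. mir-98 and let-7d were past 2-fold lower, 2 of 9 members against 6.81% of all hairpins. On library totals, on deposited RPM or with a pseudocount of 10 neither was past 2-fold (let-7d at -0.76 and mir-98 at -0.81 on library totals), and the 95% exact intervals of their TMM-scaled count ratios, -1.43 to -0.70 and -1.66 to -0.60, span 2-fold. mir-98 went from 75 to 53 counts (31.6 to 14.5 CPM, -1.08) and let-7d from 153 to 113 counts (64.6 to 30.9 CPM, -1.04). let-7g was at -0.90, let-7i at -0.84, let-7a-1 at -0.62, let-7e at -0.57, let-7f-1 at -0.51 and let-7b at -0.45. let-7c had 18 and 26 counts, and the 95% exact interval of its ratio, -1.02 to 0.86, spans 0.

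The size of the K562 difference depends on the scaling. The summed members had 7292 counts after siGFP and 7225 after siERH-5, in libraries of 2613890 and 3320017 counts. Their log2 ratio was -0.64 on TMM-scaled levels (95% exact interval -0.69 to -0.59) and -0.36 on library totals. On library totals let-7c was at 0.16 and the other 8 members stayed below 0.

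Between the cell lines let-7c stood apart. On the scale of CPM of the unscaled library total it was at 926 ± 205 in HEK293E controls (SD, n = 4) and at 6.89 in K562 siGFP (95% exact interval 4.08 to 10.9), 134-fold higher in HEK293E, and 90.6-fold higher in the lowest HEK293E control. On this scale the other 8 members were 1.38-fold (let-7e) to 5.18-fold (let-7b) higher in HEK293E by their means. let-7e ranged from 235 to 605 in HEK293E controls, a range that includes its 331 in K562 siGFP. With TMM over all 9 libraries together, the summed members stood at 5249 CPM in K562 siGFP against 6011 to 8370 in HEK293E controls. As shares of library totals they were 0.279% against 0.636% to 0.845%, so the fold sizes depend on the scaling. Single members were not compared between the lines on the joint TMM scale.

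The neighbours of let-7c showed the same gap and those of let-7e did not. mir-99a was at 4952 ± 876 CPM of the library total in HEK293E controls and 93.3 in K562 siGFP, 53.0-fold apart, and mir-125b-2 at 4044 ± 792 and 50.9, 79.5-fold apart. mir-125b-1, whose reads cannot be told from those of mir-125b-2, and mir-100, in MIR100HG, were 78.9-fold and 51.1-fold higher in HEK293E, the latter from 6 counts in K562 siGFP. mir-99b was at 4345 ± 782 in HEK293E and 4330 in K562, and mir-125a was lower in HEK293E, at 3112 ± 989 against 5559. These cell line values rest on 1 K562 control library and were not tested.

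**Figure D5:**
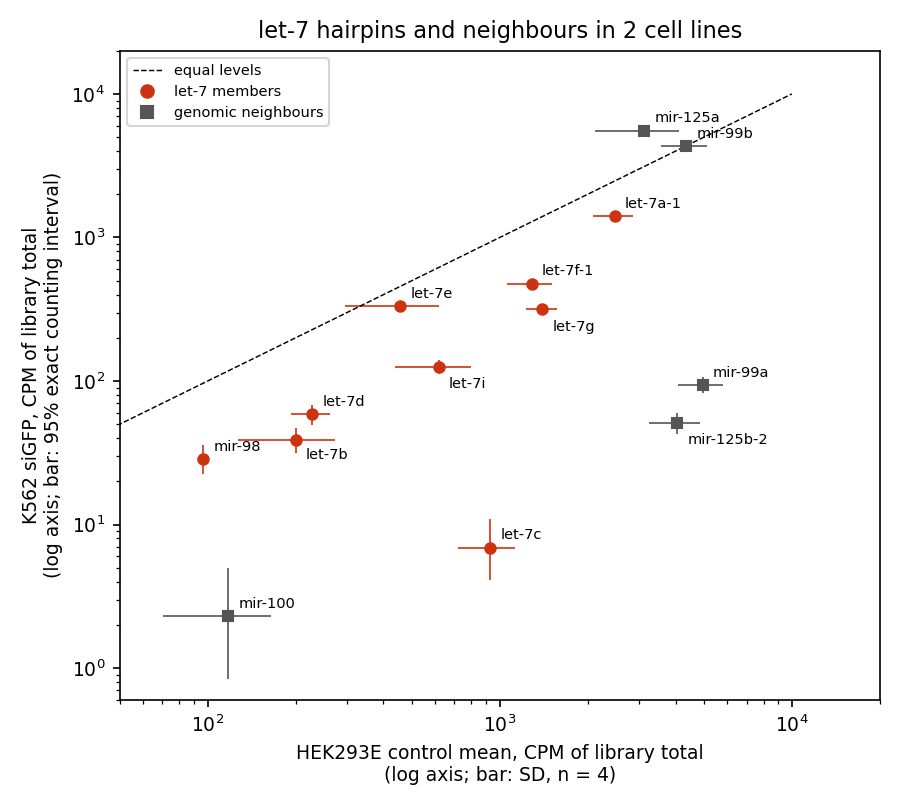
Level in K562 siGFP (95% exact counting interval) against the mean of the 4 HEK293E controls (SD), both as CPM of the unscaled library total on log axes, for the 9 hairpins (circles) and 5 neighbours (squares; mir-125b-1, which overlies mir-125b-2, and mir-4763 are not drawn). let-7c, mir-99a, mir-125b-2 and mir-100 lie 51.1-fold to 134-fold below equality, whereas let-7e and mir-99b lie near it.

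The mix of members differed accordingly. let-7a-1 took 50.3% of the members' counts in K562 siGFP (95% Wilson interval 49.2 to 51.5%) against 31.0% to 34.2% in the HEK293E controls, and let-7e took 11.8% against 3.69% to 8.04%. let-7c took 0.247% (0.156 to 0.390%) against 9.80% to 13.1%. After siERH-5 in K562 mir-98 took 0.734% of the members' counts (53 counts) against 1.03% after siGFP (75 counts), and let-7g 9.55% against 11.5%. The ratio of mir-98 to let-7f-2 was -4.16 after siGFP and -4.76 after siERH-5, a difference of -0.60. The 95% Wilson intervals of mir-98 as a percent of the pair overlapped, at 4.26 to 6.60% and 2.74 to 4.64%. The ratio of let-7e to mir-99b went from -3.71 to -4.13, a difference of -0.41. For this pair the intervals of let-7e as a percent did not overlap, at 6.65 to 7.56% and 5.08 to 5.77%. The sign was opposite to that of the HEK293E difference, which pools siERH-3 with siERH-5 and siGFP with siControl.

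The hairpins whose level was most like that of the summed members over the 9 libraries were found among 239 candidates averaging 100 CPM or more, by Pearson's r of log2(CPM + 1), with TMM over all libraries together. They were mir-196a-2 (r = 0.90), mir-455 (0.86), mir-1305 (0.85), mir-130a (0.85) and mir-651 (0.84). Over the 7 HEK293E libraries r was 0.83, 0.39, 0.58, 0.53 and 0.52 in that order. The 9 points come from 2 cell lines, and the summed members were lower in both K562 libraries (5249 and 3295 CPM) than in all 7 HEK293E libraries (6011 to 9595).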

How the data were processed

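Small RNAs of 18 to 30 nt were gel-purified with 30 spike-ins (not used here) and ligated to adapters with 4 random bases, per the labels' protocols. The authors deposited raw counts per hairpin, so arms were not separated, and RPM values, which equal (count + 1) per 1e+06 of the library total plus 1485. cutadapt, Bowtie2, bedtools and hg38 are named in the submitters' processing notes, without versions; handling of multi-mapping reads and read collapsing are not given in the sources used here. Blank cells were read as 0.

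Hairpins averaging 10 counts or more were tested with edgeR 4.0.16 (TMM, quasi-likelihood, Benjamini-Hochberg, adjusted p under 0.05; R 4.3.3). K562 ratios used a pseudocount of 1. Ratios within libraries used exact permutation tests; shares have 95% Wilson intervals and single counts exact ones, covering counting error only. The floor of 3 counts equals 0.904 to 1.15 CPM of the library total. Alternatives used DESeq2 1.42.0, limma 3.58.1 on log2(RPM + 1), library totals, other filters, left-out libraries, hairpin GC (GENCODE sequences, 772 of 773 hairpins) and a replicate block. The labels' experimental groups carry the replicate numbers, and same-numbered libraries deviated together (r = 0.69, 0.48 and 0.52 for the 3 pairs of siRNAs). The main calls leave this pairing out, and the replicate block that takes it in was run as an alternative.

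The text names the 9 members, their 3 copies, 7 neighbours, same-seed hairpins and the 5 hairpins most alike in level. Members and lists were chosen with earlier results of these data known. The fits were tested on simulated data. Permutations and tables were made in Python 3.11.15 with scipy 1.17.1, pandas 2.3.3 and numpy 2.4.6, and figures with matplotlib 3.10.9.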

Additional observations from a re-analysis of the deposited data

Results flagged for a closer look

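Among 38 sets of 4 HEK293E control values, 2 held a library that stood far from the other 3, and chance gives about 1 in 20. Both were siControl replicate 2: let-7f-1 at 1835 CPM beside 1159 to 1245 in the other controls, and its copy let-7f-2 at 1908 CPM. The 2 rows share reads and count as 1 observation.

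The let-7e to mir-99b ratio moved in opposite directions in the 2 cell lines. In HEK293E siERH minus control was 0.93, and in K562 siERH-5 minus siGFP was -0.41. The contrasts also differ in siRNAs, since the HEK293E value pools siERH-3 with siERH-5 and siGFP with siControl. In HEK293E replicate 2 the ratio was -2.92 in siERH-5, beside -3.94 in siGFP and -3.06 in siControl. The difference between the lines was not tested, since K562 has 1 library per arm and a different transfection and harvest day.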

How the results depend on the processing

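mir-98 was below 0 under all 20 alternatives that tested it and passed under 6 of them. Among the alternatives, siERH-3 alone and the fit without siERH-5 replicate 2 use the same libraries, so they are the same fit. Members called lower, 1 as reported, were 2 with DESeq2 and 0 with library totals, both limma fits, no filter, a mean of at least 100 CPM (mir-98 not tested), siGFP controls alone, siControl controls alone, siERH-3 alone and replicate 2 alone. Members called higher, 0 as reported, were 2 with library totals and 1 with both limma fits, the replicate block, the block with the GC trend removed, and replicate 2 alone. Over all hairpins 125 lower and 184 higher became 67 and 212 on library totals, 66 and 213 or 63 and 220 with limma at a pseudocount of 1 or 10, and 45 and 38 at a mean of at least 100 CPM, where 298 hairpins were tested. Lower calls made up 40.5% of calls with TMM, 24.0% on library totals and 46.8% with DESeq2. Leaving out 1 library gave 76 to 130 lower and 136 to 189 higher, with 0 to 1 members lower and 0 to 1 higher. The fewest, 76 and 77 lower, came without siERH-3 replicate 2 and siERH-3 replicate 1.

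The replicate block gave 159 lower and 217 higher for siERH, and changed the call of let-7e alone among the members. For siControl against siGFP the replicate block gave 61 lower and 72 higher where the fit without it gave 0, with 4 members higher. DESeq2 and the fit with no filter each gave 2 lower and 2 higher, and leaving out 1 library gave 0 to 1 higher. The paired ratio of mir-98 to let-7f-2 differed by -0.86 and that of let-7e to mir-99b by 0.99 with the replicate block (exact permutation p = 0.0556 for each, the smallest 18 splits allow).

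The summed K562 log2 ratio was -0.36 on library totals and on deposited RPM. The siERH difference in family share, 0.211 percentage points in HEK293E and -0.0614 in K562, was 0.468 and -0.124 with all copies summed, and -0.0759 in K562 with 1 copy per name in the denominator. The HEK293E difference was 0.127 to 0.262 when 1 library was left out, lowest without siERH-3 replicate 2. Apart from the effect of summing copies, the causes of these differences were not tested. Counts limit mir-98 and let-7c in K562 most.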
